A study of Homo sapiens with 4 samples.

Results

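The genes described here are 7 genes of MHC class I antigen presentation: the heavy chains HLA-B, HLA-C, HLA-E, HLA-F and HLA-G, the light chain B2M and the transcriptional activator NLRC5. They were picked by gene symbol from 27685 genes in the deposited tables, and all 7 passed the filter on low counts, which left 14868 genes. The list was chosen by name with earlier results of the comparison of Myc-TRIM40 with Mock already known, so the differences between those conditions are given below as a description of the libraries. RNA-seq was performed on HT-29, a human colorectal adenocarcinoma cell line, in 2 independent experiments with 1 library per condition each. Mock cells carried the control vector, and Myc-TRIM40 cells stably overexpressed the E3 ubiquitin ligase TRIM40 with a Myc tag after retroviral transduction and puromycin selection; neither condition received a further treatment. Overexpression was driven by the retroviral vector in 1 cell line, and the sources used here do not say whether the cells were clonal.

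MHC class I molecules show peptides from inside the cell to CD8+ T cells. Each molecule is a heavy chain held at the surface by β2-microglobulin, the product of B2M. HLA-B and HLA-C are classical, highly variable heavy chains, whereas HLA-E, HLA-F and HLA-G are non-classical ones with little variation that are known mainly as ligands of inhibitory receptors on natural killer cells and other leukocytes. NLRC5 has no DNA-binding domain of its own and acts with the RFX, CREB/ATF and NF-Y proteins on class I promoters. Class I genes of epithelial cells are also classical targets of interferons and of NF-κB.

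The libraries held between 60954602 and 67424698 reads assigned to transcripts, of which the 7 genes took 0.062% in Mock and 0.1589% in Myc-TRIM40 of experiment 1, and 0.099% and 0.0916% in experiment 2. TRIM40 was listed at 0 reads in both Mock libraries and at 272646 and 110665 reads in the Myc-TRIM40 libraries, so the labels matched the overexpressed gene. All 10 markers of colonic epithelium were measured, and EPCAM was between 321.8 and 621.0 FPKM (fragments scaled by transcript length and library size). The lowest of these markers were CDX1, between 0.3234 and 0.4138 FPKM, and CDX2, between 1.216 and 1.387 FPKM. Of the leukocyte markers, CD3E had 0 reads and PTPRC at most 4 in any library, while LYZ, which colon cancer cells can also express, was between 1356 and 1860 FPKM. CD14 was between 1.434 and 2.615 FPKM and CD68 between 5.861 and 11.87 FPKM. The summed level of the 6 leukocyte markers was 1364 and 1419 FPKM in experiment 1 and 1868 and 1678 FPKM in experiment 2, for Mock and Myc-TRIM40. The highest of the fibroblast and endothelium markers was COL1A1, between 0.2973 and 0.9455 FPKM. None of the 5 trophoblast markers, from the tissue in which HLA-G is best known, had more than 3 reads.

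The heavy chain genes resemble each other, and how far they can be told apart matters for every value below. In the GENCODE transcripts, the coding sequence of HLA-G was identical to that of HLA-B at 88.3% of aligned bases, to HLA-C at 88.9%, to HLA-E at 87.2% and to HLA-F at 86.8%, and HLA-B and HLA-C were identical at 92.5%. The first 120 bases of exon 4, which codes for the α3 domain next to the membrane, are shown here to let the similarity of the 5 genes be seen base by base. Capitals mark bases that differ from HLA-G.
HLA-G: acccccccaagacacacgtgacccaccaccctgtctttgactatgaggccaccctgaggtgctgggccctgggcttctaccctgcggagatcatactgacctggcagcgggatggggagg
HLA-B: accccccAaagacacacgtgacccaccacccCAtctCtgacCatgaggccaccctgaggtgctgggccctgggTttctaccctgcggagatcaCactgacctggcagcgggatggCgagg
HLA-C: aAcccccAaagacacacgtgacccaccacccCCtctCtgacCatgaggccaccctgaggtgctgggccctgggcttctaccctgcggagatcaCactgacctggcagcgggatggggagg
HLA-E: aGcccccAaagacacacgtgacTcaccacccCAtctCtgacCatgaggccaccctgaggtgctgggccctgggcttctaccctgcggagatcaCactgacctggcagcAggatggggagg
HLA-F: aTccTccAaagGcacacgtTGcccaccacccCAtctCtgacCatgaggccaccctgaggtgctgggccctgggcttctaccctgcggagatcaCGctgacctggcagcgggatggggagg
Over these 120 bases HLA-C differed from HLA-G at 7 positions, HLA-B at 8, HLA-E at 9 and HLA-F at 12. Of all stretches of 50 bases in the HLA-G transcript, 4.38% also occurred in another of the 5 genes, and the shares were 2.2% for HLA-B, 3.77% for HLA-C, 3.96% for HLA-E and 1.94% for HLA-F. Counted against any other gene, the shares were 2.54% for HLA-B, 6.79% for HLA-C and 5.13% for HLA-E, and the same for HLA-F and HLA-G. At 100 bases the share among the 5 genes was 1.01% for HLA-G and 0.6% for HLA-E, from 15 stretches that these genes had in common, and 0 for the others. Outside the 5 genes, 0.278% of the 100-base stretches of HLA-C occurred in HLA-H. At 150 bases no stretch was shared among the 5 genes. The reference holds 1 allele of each gene, the alleles of HT-29 were not typed here, and the read length was not given in the sources used here. A read of a divergent allele can therefore still be placed on a related gene.

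**Figure D1:**
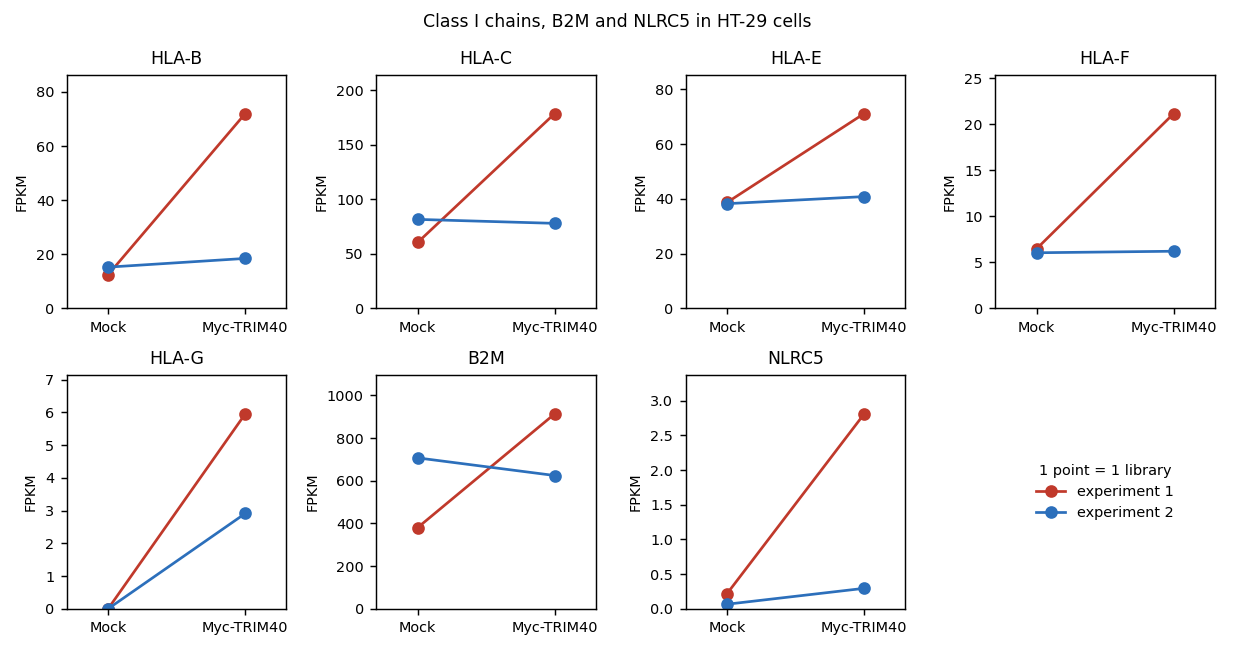
FPKM of each gene in the Mock and Myc-TRIM40 libraries, 1 point per library, with a line joining the libraries of the same experiment (red, experiment 1; blue, experiment 2) and a separate axis from 0 for each gene. All 7 red lines go up, whereas among the blue lines only HLA-G and NLRC5 stand well above their Mock library, and HLA-C and B2M lie below it.

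In experiment 1 the RNA of all 7 genes was higher in Myc-TRIM40 than in Mock, whereas in experiment 2 HLA-G and NLRC5 were clearly higher and the others stayed close to their Mock library. HLA-B (Gene ID 3106; hg19 chr6:31321643-31325022), a classical heavy chain, was at 12.5 FPKM in Mock and 72.0 FPKM in Myc-TRIM40 of experiment 1, and at 15.3 and 18.5 FPKM in experiment 2. Both Myc-TRIM40 libraries lay above both Mock libraries, but the Myc-TRIM40 library of experiment 2 was far closer to the Mock libraries than to its counterpart of experiment 1. As normalised read counts, the ratio of Myc-TRIM40 to Mock was 5.64 (95% counting interval 5.31 to 5.99) in experiment 1 and 1.11 (1.04 to 1.19) in experiment 2. Such intervals cover counting error only, and in bulk RNA a change in the share of cells that express a gene and a change in RNA per cell cannot be told apart. The log2 fold change fitted over both experiments was 1.32 ± 0.49 (SE, n = 2).

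HLA-C (Gene ID 3107; hg19 chr6:31236526-31239913), the classical chain that is the main ligand of killer cell immunoglobulin-like receptors, was at 60.4 FPKM in Mock and 178.5 FPKM in Myc-TRIM40 of experiment 1, and at 81.6 and 77.9 FPKM in experiment 2. Here the groups overlapped, since Myc-TRIM40 of experiment 2 lay between the Mock libraries. The ratio of normalised reads was 2.88 (2.80 to 2.97) in experiment 1 and 0.876 (0.850 to 0.903) in experiment 2, and the fitted log2 fold change was 0.67 ± 0.38 (SE, n = 2). The direction in experiment 2 depends on the scale, since TPM, which gives every library the same sum, put HLA-C of experiment 2 at 147.7 in Mock and 166.2 in Myc-TRIM40. The change from FPKM to TPM shifted the median log2 ratio of all genes tested by 0.19 in experiment 2 and by 0.03 in experiment 1.

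HLA-E (Gene ID 3133; hg19 chr6:30457183-30461982) presents leader peptides of other class I chains to the natural killer receptor NKG2A. It was at 38.7 FPKM in Mock and 71.2 FPKM in Myc-TRIM40 of experiment 1, and at 38.3 and 40.9 FPKM in experiment 2. The Mock libraries were nearly equal, with a ratio of experiment 2 to experiment 1 of 0.988, and both Myc-TRIM40 libraries lay above them on the FPKM scale. The normalised read ratio was 1.79 (1.74 to 1.85) in experiment 1, the smallest of the 7 genes, and 0.979 (0.947 to 1.01) in experiment 2, so the small difference of experiment 2 pointed down on reads and up on FPKM. The fitted log2 fold change was 0.41 ± 0.27 (SE, n = 2).

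HLA-F (Gene ID 3134; hg19 chr6:29691117-29695073), a non-classical chain of which much stays inside the cell, was at 6.48 FPKM in Mock and 21.2 FPKM in Myc-TRIM40 of experiment 1. In experiment 2 it was at 6.04 and 6.21 FPKM. The Myc-TRIM40 library of experiment 2 lay between the Mock libraries, and the ratio of normalised reads was 3.31 (3.00 to 3.66) in experiment 1 and 0.974 (0.862 to 1.10) in experiment 2. The fitted log2 fold change was 0.85 ± 0.39 (SE, n = 2). HLA-F overlaps the antisense RNA gene HLA-F-AS1, which had reads; the library kit was stranded, but whether counting used strand is not given in the sources used here, so reads of the pair may not be separated.

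HLA-G (Gene ID 3135; hg19 chr6:29794756-29798899), the chain known from the placenta, where it is a ligand of leukocyte inhibitory receptors, was listed at 0 reads in both Mock libraries. It had 590 reads (5.95 FPKM) in Myc-TRIM40 of experiment 1 and 295 reads (2.91 FPKM) in Myc-TRIM40 of experiment 2. The groups were fully apart, and HLA-G was the only member listed at 0 in any library. If the HLA-G zeros are true counts, a floor of 3 reads per Mock library puts the increase at 191.5-fold or more in experiment 1. Under the same condition it is 97.5-fold or more in experiment 2. HLA-G accounted for 1.71% and 1.99% of the summed heavy chain FPKM in the Myc-TRIM40 libraries. Reads per transcript were estimates of the authors' pipeline, and apart from TRIM40 only 3 genes of the tables had 0 reads in both Mock libraries and at least 100 in both Myc-TRIM40 libraries. The others were the readthrough genes PHOSPHO2-KLHL23, with 630 and 681 reads, and LY75-CD302, with 238 and 377 reads, named after their values were seen, and 0 genes had the opposite pattern. The part of read assignment in the zeros of HLA-G was not tested.

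B2M (Gene ID 567; hg19 chr15:45003685-45010357), the light chain common to all class I molecules, was by far the most abundant of the 7 RNAs per unit of length. It was at 380.0 FPKM in Mock and 913.3 FPKM in Myc-TRIM40 of experiment 1, and at 706.9 and 624.2 FPKM in experiment 2. The Mock libraries themselves differed 1.86-fold, and Myc-TRIM40 of experiment 2 lay between them. The ratio of normalised reads was 2.35 (2.31 to 2.38) in experiment 1 and 0.810 (0.799 to 0.820) in experiment 2, with a fitted log2 fold change of 0.46 ± 0.34 (SE, n = 2). In experiment 2 the difference was downward on FPKM and reads and slightly upward on TPM, at 1280 and 1331.

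NLRC5 (Gene ID 84166; hg19 chr16:57023397-57117436), the activator of class I genes, was scarce in Mock, with 93 reads (0.219 FPKM) in experiment 1 and 32 reads (0.0656 FPKM) in experiment 2. In Myc-TRIM40 it had 1188 reads (2.81 FPKM) and 129 reads (0.295 FPKM), so both Myc-TRIM40 libraries lay above both Mock libraries. The ratio of normalised reads was 12.4 (10.1 to 15.5) in experiment 1 and 4.00 (2.70 to 6.08) in experiment 2. The fitted log2 fold change was 2.90 ± 0.41 (SE, n = 2). The Mock library of experiment 2 had 0.299 times the FPKM of that of experiment 1, and Myc-TRIM40 of experiment 2 was only slightly above Mock of experiment 1.

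**Figure D2:**
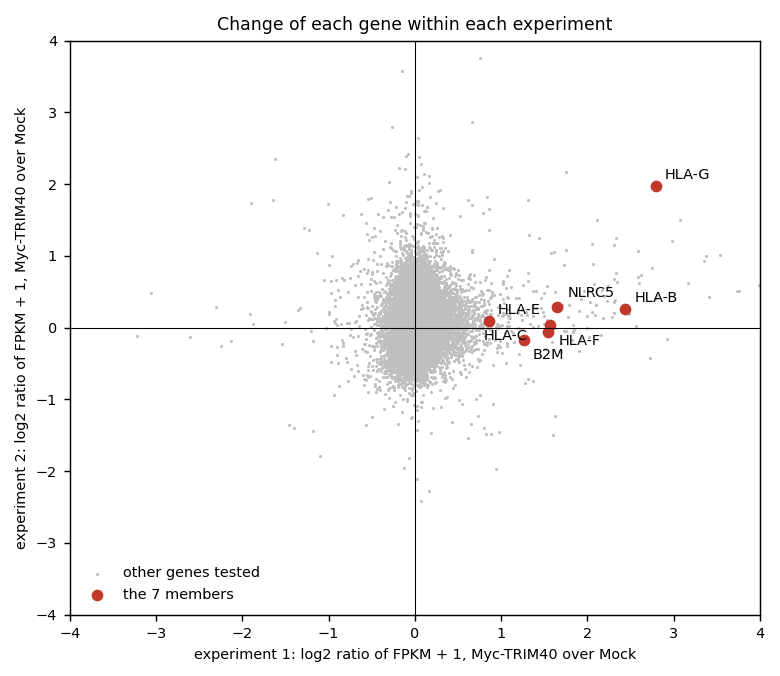
Log2 ratio of FPKM + 1, Myc-TRIM40 over Mock, in experiment 1 (horizontal) and experiment 2 (vertical), for the 7 genes (red) and all other genes tested (grey); 9 of 14868 genes lie outside the axes. The 7 genes spread along the right of the plot, and 6 of them lie within 0.3 of 0 on the vertical axis, with HLA-G alone high on both axes.

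The median log2 ratio of FPKM + 1 over the 7 genes was 1.57 in experiment 1 and 0.09 in experiment 2, against 0.03 and 0.08 over all genes tested. In experiment 1, 7 of 7 members were higher by at least 1.5-fold on that scale, as were 2.78% of all genes tested. In experiment 2 only HLA-G was, beside 8.54% of all genes. In 4 of 7 members (HLA-B, HLA-E, HLA-G and NLRC5) both Myc-TRIM40 libraries exceeded both Mock libraries in FPKM, as in 15.2% of all genes. With edgeR's quasi-likelihood test and the experiment as a block, HLA-G was the only member past an adjusted p of 0.05 in the higher direction, beside 0.0404% of all genes, and 0 members were called lower, beside 0.0202%. With DESeq2 the only member called higher was NLRC5, beside 0.303% of all genes. Because the members were chosen on this contrast, these counts carry no evidence of their own. The difference between the experiments was not tested, since each holds 1 library per condition. A Mock-to-Mock difference past 1.5-fold in FPKM + 1 was seen for 27.5% of all genes tested.

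Summing the 5 heavy chain genes removes any exchange of reads among them, but not with genes outside the 5. The sum was 14218 reads in Mock and 39249 in Myc-TRIM40 of experiment 1, and 18294 and 17653 in experiment 2. The Myc-TRIM40 library of experiment 2 lay between the Mock libraries, and the log2 ratio was 1.43 in experiment 1 and -0.06 in experiment 2, with a fitted value of 0.68 ± 0.34 (SE, n = 2). The pseudogene HLA-H, which shares 4.51% of the 50-base stretches of HLA-C, had 1895 reads in Mock and 2240 in Myc-TRIM40 of experiment 1, against 2064 and 1388 reads in experiment 2, and so differed less than HLA-B, HLA-C or HLA-F in experiment 1.

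**Figure D3:**
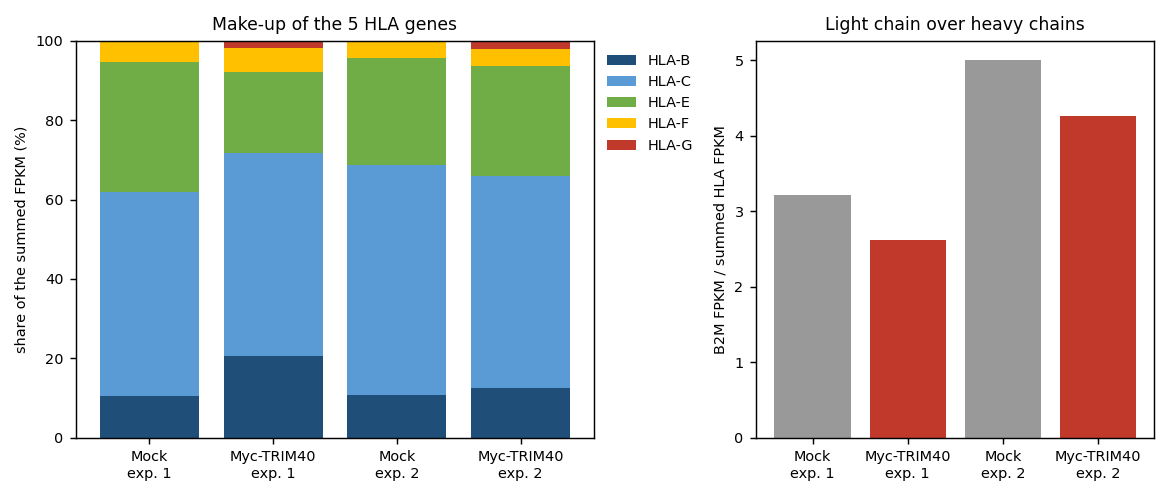
Left, share of each heavy chain gene in the summed FPKM of the 5 HLA genes in each library; right, B2M FPKM divided by that sum. HLA-B takes 20.6% in Myc-TRIM40 of experiment 1 and between 10.6% and 12.6% elsewhere, and the light to heavy chain ratio is lower in Myc-TRIM40 than in Mock within each experiment.

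The make-up of the heavy chain pool shifted in experiment 1. HLA-C took the largest share in every library, between 51.2% and 57.8% of the summed FPKM. HLA-B went from 10.6% in Mock to 20.6% in Myc-TRIM40 of experiment 1 and from 10.8% to 12.6% in experiment 2. HLA-E went from 32.8% to 20.4% in experiment 1, while its shares in experiment 2 were 27.1% and 27.9%. The order of levels per unit of length was B2M, HLA-C, HLA-E, HLA-B, HLA-F, NLRC5 and HLA-G in both Mock libraries. HLA-G stood above NLRC5 in both Myc-TRIM40 libraries, and HLA-B reached HLA-E in experiment 1, where these neighbours, at 72.0 and 71.2 FPKM, differed by far less than the Mock libraries did for HLA-B. B2M FPKM was 3.22 times the heavy chain sum in Mock and 2.62 times in Myc-TRIM40 of experiment 1, and 5.01 and 4.26 times in experiment 2. The gap between the experiments in this ratio was larger than that between the conditions.

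**Figure D4:**
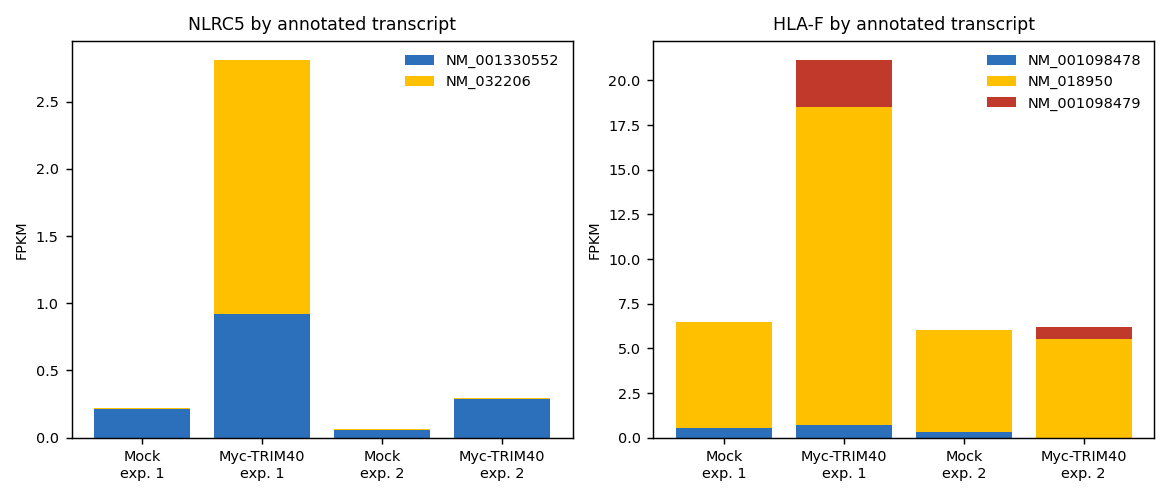
FPKM of NLRC5 (left) and HLA-F (right) split by annotated RefSeq transcript in each library. The long HLA-F transcript NM_001098479 (red) is visible in the Myc-TRIM40 libraries only, and NM_032206 of NLRC5 (yellow) is prominent in Myc-TRIM40 of experiment 1 only.

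The transcripts behind the gene totals differed between libraries for NLRC5 and HLA-F. NLRC5 has a pair of annotated transcripts with a common end and different starts, at 57023397 for NM_001330552 and at 57050986 for NM_032206 on chromosome 16 of hg19. NM_032206 took 67.2% of the NLRC5 reads (exact 95% binomial interval 64.4 to 69.8) in Myc-TRIM40 of experiment 1, which was 798 reads, and 4 reads (3.1%, interval 0.851 to 7.75) in Myc-TRIM40 of experiment 2. In Mock it took 4 of 93 reads and 5 of 32 reads. The NM_001330552 reads, at 89 and 390 in experiment 1 and 27 and 125 in experiment 2, were higher in Myc-TRIM40 in both experiments. By these estimates, the difference of NLRC5 between the Myc-TRIM40 libraries lay for the most part in the transcript with the downstream start. The transcripts overlap and are listed at 6748 and 6724 bases. Reads were divided between them by estimation, and the intervals take no account of that.

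HLA-F reads fell mostly on NM_018950, with 477 reads in Mock and 1436 in Myc-TRIM40 of experiment 1, against 509 and 454 in experiment 2. The longer NM_001098479, which ends further downstream, had 0 and 3 reads in Mock and 260 and 72 reads in Myc-TRIM40. Its share was 14.9% (interval 13.3 to 16.7) in Myc-TRIM40 of experiment 1 and 13.7% (10.9 to 16.9) in Myc-TRIM40 of experiment 2, so the experiments were alike in this share although the total of HLA-F was not. In the Mock libraries the upper limits of the interval were 0.718% and 1.63%. Reads were divided among overlapping transcripts by estimation, and these intervals take no account of that. HLA-B, HLA-E, HLA-G and B2M have 1 transcript each in the tables, and all HLA-C reads were placed on NM_002117.

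The promoters of the class I genes are shown because NLRC5, interferon and NF-κB act on the stretch just before the start. The 150 bases from 200 to 51 bases upstream of the RefSeq start (GRCh38.p14, 5′ to 3′ along the gene) are printed for the 5 members with an entry in the promoter table. HLA-B lies at chr6:31357230-31357379 on the minus strand, HLA-C at chr6:31272143-31272292 on the minus strand, HLA-F at chr6:29723234-29723383 on the plus strand, HLA-G at chr6:29827625-29827774 on the plus strand and B2M at chr15:44711317-44711466 on the plus strand. Of the 3 HLA-G starts in the table the most downstream is shown. Capitals mark matches on either strand. The motifs were GAANNGAAA and GAAANNGAA (forms of the interferon-stimulated response element, ISRE) and TGACGC (the X2 box bound by CREB/ATF). TGACNC (the same letters with 1 base open), CCAAT (the Y box bound by NF-Y) and GGGGANTCC (a κB site) were also marked.
HLA-B: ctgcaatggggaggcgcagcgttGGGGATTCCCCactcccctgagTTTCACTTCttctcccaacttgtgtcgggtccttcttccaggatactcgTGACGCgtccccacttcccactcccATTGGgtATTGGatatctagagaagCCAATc
HLA-C: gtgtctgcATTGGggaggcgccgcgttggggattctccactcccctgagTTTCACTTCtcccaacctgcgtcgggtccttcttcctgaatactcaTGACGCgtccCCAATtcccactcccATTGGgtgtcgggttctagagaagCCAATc
HLA-F: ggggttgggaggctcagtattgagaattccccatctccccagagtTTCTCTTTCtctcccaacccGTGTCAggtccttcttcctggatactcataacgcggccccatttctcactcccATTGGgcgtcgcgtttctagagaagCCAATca
HLA-G: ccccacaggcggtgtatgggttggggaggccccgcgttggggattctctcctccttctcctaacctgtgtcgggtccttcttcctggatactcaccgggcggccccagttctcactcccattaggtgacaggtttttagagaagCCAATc
B2M: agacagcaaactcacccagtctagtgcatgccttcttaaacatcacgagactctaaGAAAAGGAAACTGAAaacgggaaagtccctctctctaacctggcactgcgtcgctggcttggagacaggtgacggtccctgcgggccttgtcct

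Over the 250 bases upstream of the start, GAANNGAAA was found in HLA-B and HLA-C, and in 6.56% of all 35116 promoters. The form GAAANNGAA, added after the promoters were seen, was found in HLA-F once and in B2M at 2 overlapping places, and in 6.88% of all promoters. TGACGC was found in HLA-B (bases -106 to -101) and HLA-C (-105 to -100) against 7.67% of all promoters. TGACNC, which includes it, was found in HLA-B, HLA-C, HLA-F and HLA-G against 34.4%. The HLA-F match lay elsewhere, at -135 to -130 on the opposite strand. The HLA-G matches were at -250 to -245 for the start shown, outside the printed stretch, and at -16 to -11 and -6 to -1 for another start. HLA-G was searched in 3 windows, whereas the share over all promoters counts single windows. CCAAT was found in all 5 and in 32.0% of all promoters, and GGGGANTCC, which matched HLA-B on both strands at overlapping places, in 1.36%. HLA-G, the gene listed at 0 in Mock, held neither form of the ISRE nor TGACGC in any of its 3 windows, and in the window printed its CCAAT stood at the same distance, from 56 to 52 bases before the start, as one of those of HLA-B and HLA-C. HLA-E and NLRC5 were not analysed here for motifs. A match describes letters only, and an absent match says nothing of a factor.

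For each member, the genes with the most similar profile over the 4 libraries were found by the root mean square difference of centred log2 normalised read counts. HLA-B was nearest to TMOD2, IRF7 and LOC101928841, with TMOD2 the closest at a difference of 0.0748 on the log2 scale. Of these IRF7, an interferon regulatory factor, was at 16.5 and 80.8 FPKM in experiment 1 and at 16.5 and 21.8 FPKM in experiment 2, with a difference from HLA-B of 0.109 on the log2 scale. HLA-C was nearest to ANXA6, DUSP5 and TRIM21, HLA-E to SYT12, MERTK and IL20RB, and HLA-F to SEPT4, C19orf66 and COL20A1. B2M was nearest to PIFO, AKR1B1 and CXCL1, all with the higher Mock level in experiment 2. NLRC5 was nearest to MMP13, RTP4 and OAS3, and OAS3, an interferon-induced oligoadenylate synthetase, was at 18.7 and 165.1 FPKM in experiment 1 and at 8.05 and 24.6 FPKM in experiment 2. HLA-G was nearest to PHOSPHO2-KLHL23 and LY75-CD302, at greater distances of 0.508 and 0.631. Several of the neighbours were scarce, and TMOD2, LOC101928841, SEPT4, COL20A1, PIFO and AKR1B1 were at or below 0.3506 FPKM in every library. With 4 libraries such likeness is a description.

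**Figure D5:**
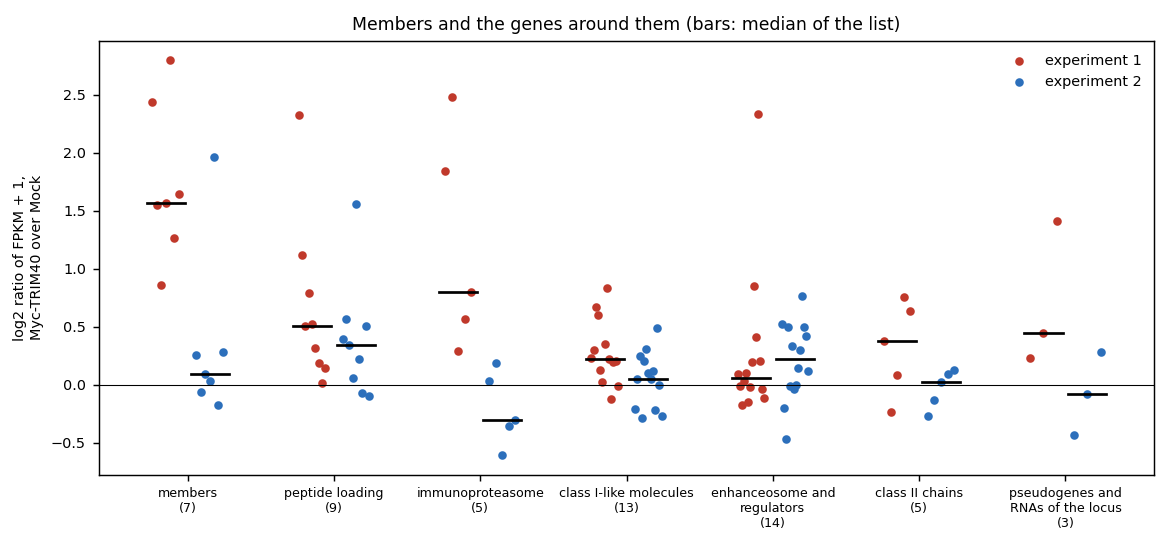
Log2 ratio of FPKM + 1, Myc-TRIM40 over Mock, of the 7 members and of the tested genes of 6 lists, 1 point per gene, in experiment 1 (red) and experiment 2 (blue), with the number of genes in brackets and black bars for medians. The members have the highest median in experiment 1 (1.57).

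The genes around class I presentation were taken from lists drawn up by textbook role. No gene of these lists passed an adjusted p of 0.05 in the edgeR fit, so counts are given at an unadjusted p under 0.05, which 3.41% of all genes tested passed as higher and 1.13% as lower. Lists this small hold few genes, so a count of 1 to 3 is a description only. Among 9 genes of peptide loading 3 were higher and 0 lower at that threshold, with a median log2 fold change of 0.36 against 0.04 over all genes. TAP1, a subunit of the peptide transporter, was at 3.07 and 19.4 FPKM in experiment 1 and at 3.18 and 4.48 FPKM in experiment 2, with a log2 fold change of 1.49 ± 0.47 (SE, n = 2; edgeR adjusted p = 0.888). TAP2, its partner, had 0.87 ± 0.24 (adjusted p = 0.771), and ERAP1, which trims peptides, had 1.35 ± 0.36 (adjusted p = 0.695). Unlike TAP1, ERAP1 differed more in experiment 2, at 0.838 and 4.43 FPKM, than in experiment 1, at 4.92 and 7.505 FPKM. Its Myc-TRIM40 library of experiment 2 lay below the Mock library of experiment 1. Of 5 immunoproteasome genes 1 was higher: PSMB9, a catalytic subunit, was at 0.705 FPKM in Mock and 8.54 FPKM in Myc-TRIM40 of experiment 1, against 1.26 and 1.56 FPKM in experiment 2. PSMB8 and PSMB10, the other catalytic subunits, had log2 fold changes of 0.91 ± 0.43 and -0.24 ± 0.28.

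The partners through which NLRC5 acts on DNA were not called, with log2 fold changes of 0.25 ± 0.22 for RFX5, -0.21 ± 0.22 for RFXAP, -0.40 ± 0.22 for RFXANK, 0.19 ± 0.22 for CREB1 and 0.02 ± 0.22 for NFYA. IRF1, a factor that binds ISREs, was at 9.24 and 17.5 FPKM in experiment 1 and at 7.23 and 8.10 FPKM in experiment 2. CIITA, the relative of NLRC5 that controls class II genes, was listed at 0 in all 4 libraries.

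Of 12 class II chains 7 were listed at 0 in all libraries, HLA-DRA and HLA-DRB1 among them. The 5 tested had a median log2 fold change of 0.50, and 0 of them reached an unadjusted p under 0.05. HLA-DOB, a chain of the class II chaperone HLA-DO, was at 0.182 and 0.997 FPKM in experiment 1 and at 0.263 and 0.347 FPKM in experiment 2 (log2 fold change 1.31 ± 0.64). CD74, the invariant chain, was at 1.83 and 3.39 FPKM in experiment 1 and at 1.05 and 1.24 FPKM in experiment 2. HLA-DMB was lower in both experiments, at 0.948 and 0.657 FPKM in experiment 1 and at 0.780 and 0.626 FPKM in experiment 2. Its log2 fold change was -0.49 ± 0.39, against -0.008 ± 0.29 for HLA-DMA and 0.67 ± 0.72 for HLA-DOA. Among 13 tested class I-like molecules 2 were higher at the same threshold: ULBP1, a stress ligand of the receptor NKG2D, had a log2 fold change of 1.85 ± 0.41 (edgeR adjusted p = 0.442), from 42 to 203 reads in experiment 1 and from 25 to 68 reads in experiment 2. MR1, which presents vitamin B metabolites to mucosal-associated T cells, had 1.03 ± 0.37 (adjusted p = 0.888). FCGRT, the heavy chain of the neonatal Fc receptor and another partner of B2M, had -0.24 ± 0.21. Among the 3 tested pseudogenes and RNAs of the class I locus, HCP5, a long non-coding RNA near HLA-B, was higher, with 26 reads in Mock and 331 in Myc-TRIM40 of experiment 1, against 19 and 55 in experiment 2 (log2 fold change 2.65 ± 0.55; edgeR adjusted p = 0.351).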

How the data were processed

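The authors prepared stranded mRNA libraries and, per the labels, aligned them to hg19 with HISAT2 2.1.0 and quantified RefSeq transcripts with StringTie 1.3.4d. Deposited values were, for each transcript, an estimated count in whole reads, FPKM and, in experiment 2 only, TPM; TPM of experiment 1 was computed from FPKM. Other deposited columns were transcript lengths in bases. The 63714 transcripts were summed to 27685 genes. Totals were 60954602 to 67424698 reads, and the number of experiments, 2, limits precision.

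Genes were tested with edgeR 4.0.16 in R 4.3.3 (glmQLFit, glmQLFTest, TMM, filterByExpr, Benjamini-Hochberg, threshold 0.05) on all 4 libraries with the experiment number as a block, leaving 1 residual degree of freedom. Libraries were paired by the replicate number of their labels and by file, 1 per experiment, and deviations of same-numbered libraries correlated at 0.449 over 14868 genes. P-values rest on the spread between these libraries, with the dispersion of each gene moderated over all genes tested. The median prior degrees of freedom were 7.44 against 1 residual, so they lean mostly on other genes. They do not measure the spread between replicates of a condition within an experiment. Ratios of FPKM used a pseudocount of 1. Alternatives were no block, DESeq2 1.42.0, limma 3.58.1 on log2(FPKM + 1), upper-quartile factors, no filter, median centring, TPM, a pseudocount of 0.1, each experiment left out and the HLA genes summed; leaving TRIM40 out and ratios of normalised reads were chosen after seeing the data. On simulated counts with 200 changed genes the block fit found 127 of 200, including 99 of 99 changed 4-fold. It called 4 unchanged genes among 14876. Recovery of genes whose ratios differ between the experiments, as those of the members do, was not tested. In the block fit of the libraries themselves, NLRC5 had a log2 fold change of 2.90 and was not called (edgeR adjusted p = 0.0867). The members and lists were chosen with earlier results of these data known. Named genes were all members, TRIM40, genes of the lists with an adjusted p under 0.05 or up to 3 with the smallest p, and the 3 nearest genes; other genes of the lists were named for their role after their values were seen. Promoters came from RefSeq (GRCh38.p14), 5 of 7 members matching, and transcripts from GENCODE v29. Coordinates of the builds were not mixed. A few genes that the naming rule covers are left out of the text.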

Additional observations from a re-analysis of the deposited data

How the results depend on the processing

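The calls depended on the pairing of the libraries by experiment, on the tool and on the filter. Without the replicate block, 0 genes were called higher and 0 lower, in place of 6 and 3, with 128 and 25 at an unadjusted p under 0.05, and 0 members were called. DESeq2 called 45 genes higher and 9 lower, limma 3 and 0, and the fit without a filter on low counts 0 and 0 (343 and 104 unadjusted). With limma and without a filter 0 members were called. With the HLA genes summed to 1 feature only 2 members were left to test, and 0 were called. HLA-G was not a separate feature in that setting, so its call could not be kept there. HLA-G lost its call without the block, with DESeq2, with limma and without the filter, and NLRC5 gained one with DESeq2. Upper-quartile factors and leaving out TRIM40 kept 1 member called. Leaving out an experiment gives values with no test. The median of the members ranged from -0.031 without experiment 1 to 1.72 without experiment 2, and the summed HLA genes from -0.064 to 1.43. The range was -0.19 to 1.53 for HLA-C, -0.031 to 0.843 for HLA-E, -0.037 to 1.72 for HLA-F and -0.30 to 1.23 for B2M, so the higher values of these genes rest on experiment 1, and the cause was not tested. Within experiment 2, on TPM HLA-C was at 0.17 and B2M at 0.056, and on normalised reads HLA-E was at -0.031, HLA-F at -0.038 and the median at -0.031, each with a sign opposite to that on FPKM. HLA-B, HLA-G and NLRC5 were above 0 in all 9 alternatives. A pseudocount of 0.1 raised the log2 ratio of NLRC5 from 1.65 to 3.19 in experiment 1 and from 0.28 to 1.25 in experiment 2. HLA-G, listed at 0 in Mock, has only a lower bound, which rests on those zeros being true counts. Depth leaves NLRC5 with 32 reads in Mock of experiment 2.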
